A study of Mus musculus with 19 samples.

Results

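The 42 genes described here carry the cell through DNA replication and mitosis. They were given as a list of symbols and found by symbol among the 41388 Ensembl genes counted in every RNA library, and all 42 were found. By role, 10 license and fire replication origins, 6 make DNA or supply nucleotides, 6 are cyclins and regulators of G1 and S phase, 7 are kinases and cyclins of G2 and mitosis, 11 act at the spindle, the checkpoint, the kinetochore or the midbody, and 2 (Mki67 and Top2a) are the usual markers of proliferating cells. The questions were whether these genes differed between Wiz MommeD30/+ and Wiz+/+ embryonic brains, which would show as a shift of S phase and mitotic genes, and how the embryonic brain compared with the adult cerebellum.

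Wiz encodes a zinc finger protein that associates with the G9a/GLP histone methyltransferases. MommeD30 is a frameshift null allele of Wiz that came from an ENU mutagenesis screen, and it was studied here in the heterozygous state. PolyA RNA was sequenced from whole brains of FVB embryos at 13.5 days post coitum, in 3 Wiz+/+ (WT) and 3 Wiz MommeD30/+ (Het) males and in 2 WT and 2 Het females. It was also sequenced from the cerebellums of adult males at 56 days post partum, 3 WT and 3 Het. The line carries a GFP reporter transgene on what the study's methods give as an FVB/NJ background, in WT and Het mice alike. Whole tissue was used, so fewer cells of a type and less RNA per cell cannot be told apart. The labels give no litter, dissection day or sequencing run, and nothing in them says which samples share one, so p-values measure the spread between these samples only.

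A dividing cell loads MCM helicases onto origins in G1, with Cdc6 and Cdt1 as loaders, and fires them in S phase with Cdc45 and the GINS complex. Cyclin D and cyclin E release E2F from the Rb proteins, and E2F drives replication genes. Later genes, needed in G2 and mitosis, are switched on through CCAAT boxes and CHR elements bound by NF-Y and by the MuvB complex. In the E13.5 brain, radial glia divide at the ventricle and their daughters leave the cycle as neurons, whereas nearly all neurons of the adult cerebellum have left it, the granule cell progenitors of the external layer having finished dividing in the first weeks after birth.

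Promoter sequence was examined because most of these genes moved together between the tissues. RefSeq promoters of build GRCm38.p6 were matched for 35 of the 42 genes, with 36 promoters in all, and the 250 bases before each start site were searched on both strands for the E2F forms TTTCCCGC, TTTGGCGC, TTTCGCGC and TTTGCCGC, the CHR element in its common form TTTGAA or in the rarer form TTCGAA, and the letters CCAAT of the CCAAT box. The rarer CHR form and its reverse complement are the same letters, and forms may overlap one another. A CCAAT was present in 29 of the 36 promoters (80.6%), against 33.8% of all 32851 promoters in the table. An E2F form was present in 7 (19.4%, against 1.86%) and a CHR form in 10 (27.8%, against 17.1%). Among the S phase genes 5 of 15 promoters held an E2F form and 3 a CHR form, whereas among the mitotic genes 1 of 17 held an E2F form and 7 a CHR form. A match of letters is a description of the sequence, not evidence of binding. The Mcm5 promoter is shown as an S phase example with E2F letters, that of Mki67 as a mitotic example with several CCAAT and CHR matches, and that of Cdc20 because this gene differed by genotype in one tissue. They are written 5' to 3' on the strand of the gene, with all matches in capitals:
Mcm5 (GRCm38.p6, chr8:75109259-75109508, plus strand): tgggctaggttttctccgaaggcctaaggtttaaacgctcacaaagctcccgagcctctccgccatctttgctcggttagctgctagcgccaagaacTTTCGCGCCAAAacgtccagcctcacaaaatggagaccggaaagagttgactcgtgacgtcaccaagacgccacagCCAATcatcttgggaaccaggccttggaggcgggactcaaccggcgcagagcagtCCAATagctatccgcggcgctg
Mki67 (GRCm38.p6, chr7:135716380-135716629, minus strand): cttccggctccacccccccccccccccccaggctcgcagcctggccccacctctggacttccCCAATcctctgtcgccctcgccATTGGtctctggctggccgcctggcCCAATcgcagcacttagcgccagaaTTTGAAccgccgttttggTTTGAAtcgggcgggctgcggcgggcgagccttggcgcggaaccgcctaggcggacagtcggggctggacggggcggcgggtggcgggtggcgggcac
Cdc20 (GRCm38.p6, chr4:118437344-118437593, minus strand): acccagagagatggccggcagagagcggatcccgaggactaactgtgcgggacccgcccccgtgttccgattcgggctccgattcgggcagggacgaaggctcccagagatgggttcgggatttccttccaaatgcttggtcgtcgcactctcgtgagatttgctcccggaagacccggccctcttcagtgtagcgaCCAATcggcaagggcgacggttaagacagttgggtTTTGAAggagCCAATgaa
In Mcm5 the capitals are 2 overlapping E2F forms and 2 CCAAT boxes. In Mki67 they are 3 CCAAT boxes, one of them on the opposite strand, followed by 2 CHR forms. Cdc20 had a CHR form between 2 CCAAT boxes, the nearest of them next to the start site.

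Between 16386029 and 50459755 reads per library were counted on genes, and the smallest library was the second WT male brain. Levels are given as CPM, read counts divided by the library size after TMM scaling over all 16 libraries. Wiz itself was at 173 to 190 CPM in the 5 WT brains and 112 to 122 CPM in the 5 Het brains, and at 104 to 105 CPM against 73.1 to 74.7 CPM in WT and Het cerebellums, with no overlap between genotypes in either tissue. Its log2 fold change was -0.63 (SE 0.041, adjusted p = 1.3e-05, edgeR) in male brain. Examples of markers nearly confined to a tissue were Gabra6 and Atoh1. Gabra6, a receptor subunit of mature granule cells, was at 923 to 984 CPM in the cerebellums and at most 0.0234 CPM in any brain. Atoh1, which marks granule cell progenitors, had no count in any cerebellum and 1.59 to 2.84 CPM in the brains. Other markers of these lists were shared, since Barhl1 of the progenitor list had 391 to 437 reads in every cerebellum. Zic1 of the granule cell list had 4981 or more reads in every brain.

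The embryonic brain expressed these genes at far higher levels than the adult cerebellum, and the mitotic genes differed most. In the edgeR quasi-likelihood test of 3 WT male brains against 3 WT cerebellums, 40 of the 42 genes passed the threshold of an adjusted p of at most 0.05 with a fold under 0.7 or over 1.3, all 40 higher in brain. Of all 16840 genes tested, 36.7% were called higher in brain and 32.8% lower. The median log2 fold change of the 42 was 4.81, against 0.015 over all genes tested, and for 41 of them every brain lay above every cerebellum, as was so for 44.1% of genes tested. The 42 genes together took 0.349% to 0.391% of the counts of a male brain and 0.0247% to 0.0261% of those of a cerebellum. Tissue, age and any difference in how the 2 sets were handled cannot be told apart in this comparison.

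**Figure D1:**
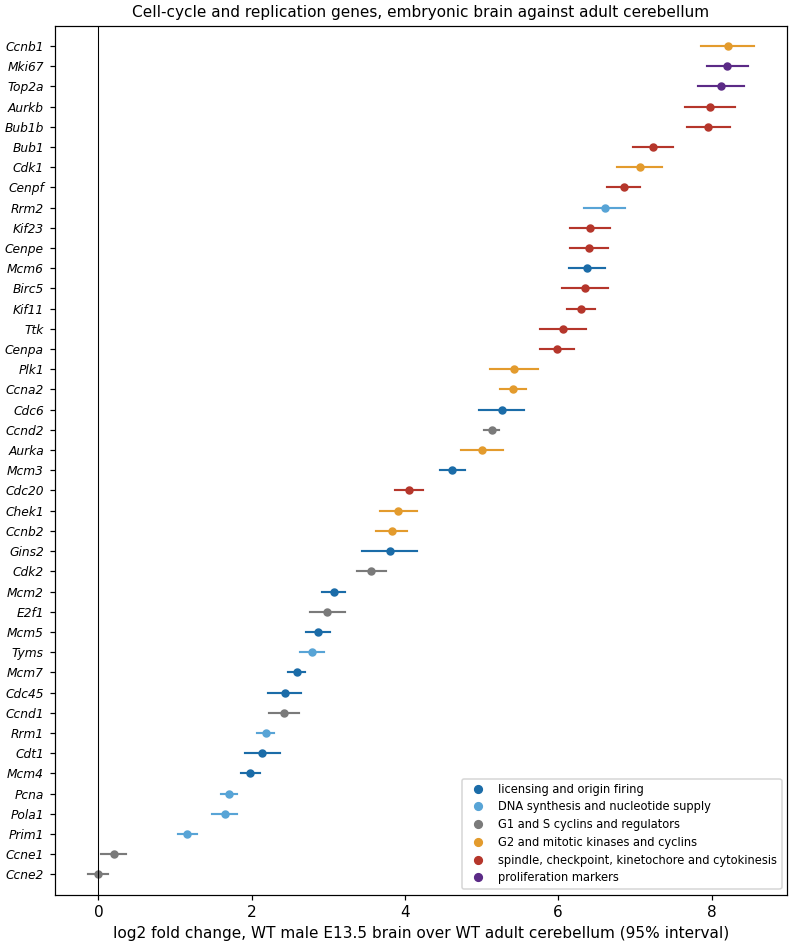
Log2 fold change of each of the 42 genes between WT male E13.5 brain and WT adult cerebellum (3 libraries each; points are edgeR estimates, lines their 95% intervals, colours the role of the gene). The scale is log2, and the genes run from Ccne2 at about 0 to Ccnb1, Mki67 and Top2a at 8.21, 8.21 and 8.12, with the DNA synthesis genes mostly at the lower end.

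The 3 largest differences were those of Ccnb1, Mki67 and Top2a. Ccnb1, the cyclin that activates Cdk1 at mitotic entry, was at 67.6, 72.2 and 79.2 CPM in the WT male brains and at 0.0722, 0.445 and 0.214 CPM in the WT cerebellums. In counts, the cerebellums held 2, 12 and 6 reads of it, so its log2 fold change of 8.21 (95% interval 7.87 to 8.56) rests on few reads on one side. Mki67, which coats mitotic chromosomes, was at 331, 343 and 370 CPM in brain and at 0.830, 1.97 and 0.750 CPM in cerebellum. Top2a, the topoisomerase that untangles sister chromatids, was at 321, 349 and 366 CPM against 0.614, 2.15 and 0.964 CPM. For both of them the second WT cerebellum lay well above the other two, and still far below any brain.

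The kinases and cyclins of G2 and mitosis differed by a median of 5.41 on the log2 scale, with a range of 3.83 to 8.21, and the spindle, checkpoint and kinetochore genes one of 6.40 with a range of 4.05 to 7.98. Cdk1, the kinase of mitotic entry, was at 46.5, 54.4 and 52.5 CPM in brain and at 0.325, 0.556 and 0.250 CPM in cerebellum, a log2 fold change of 7.07 (SE 0.137). Aurkb, the chromosomal passenger kinase, was near the limit of detection in adult tissue, with 3, 4 and 4 reads in the WT cerebellums, where 3 reads correspond to 0.0978 to 0.101 CPM of the unscaled total. Cdc20, the activator of the anaphase promoting complex, had the smallest difference of its role group at 4.05 (SE 0.085), and Ccnb2, a second mitotic cyclin, the smallest among the cyclins and kinases at 3.83 (SE 0.095).

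Replication genes were also higher in brain, but more of their expression was present in the adult tissue. The 10 licensing and firing genes had a median log2 fold change of 2.97, and the 6 synthesis and nucleotide genes one of 1.95. Mcm5, a subunit of the replicative helicase, was at 66.8, 79.7 and 75.8 CPM in brain and at 10.8, 10.2 and 9.21 CPM in cerebellum, a log2 fold change of 2.87 (SE 0.073). Helicase subunits were unequal in this respect, since Mcm4 differed by 1.98 and Mcm6 by 6.38, with cerebellar means per kilobase of exon of 6.02 and 0.239 CPM. Pcna, the sliding clamp that is also used in DNA repair, was at 109, 123 and 120 CPM against 35.0, 34.9 and 37.5 CPM. Prim1, a DNA primase subunit, was at 33.1, 32.7 and 34.5 CPM against 14.7, 15.9 and 14.3 CPM, the smallest difference among the 40 genes called (log2 fold change 1.16, SE 0.060). The adult level of Pcna was 30.5% of the brain level, that of Prim1 44.8% and that of the polymerase subunit Pola1 32.1%, whereas Rrm2, the ribonucleotide reductase subunit tied to S phase, was at 1.02%. The large subunit Rrm1 was at 22.0%.

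Averaged over the 16 S phase genes (licensing and synthesis together), the mean log2 CPM was 5.73 ± 0.097 in WT male brain and 2.54 ± 0.096 in WT cerebellum (SD, n = 3 each). Over the 19 mitotic genes it was 5.97 ± 0.096 and -0.42 ± 0.26. The difference was 3.19 for S phase genes and 6.39 for mitotic genes, each many times the SD between replicates, and no library of one tissue came near the other.

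**Figure D2:**
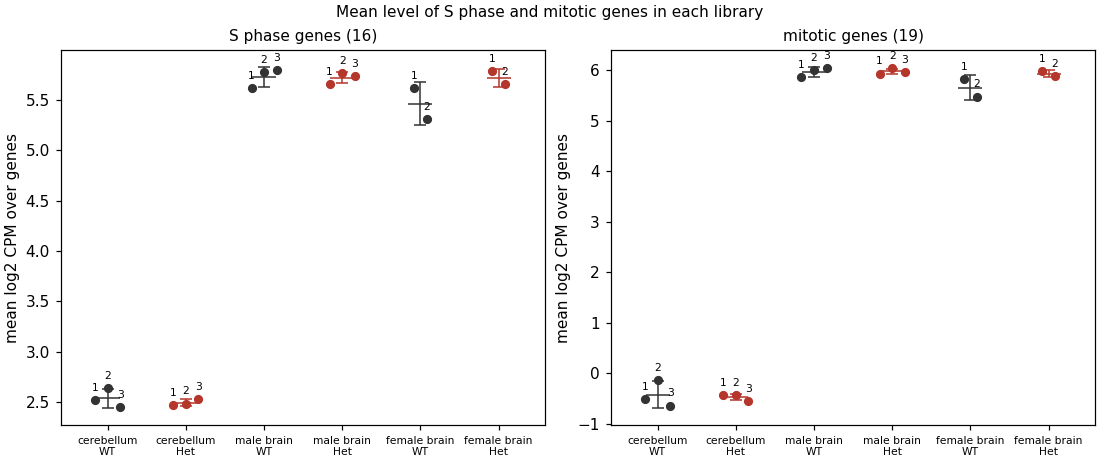
Mean log2 CPM over the 16 S phase genes (left) and the 19 mitotic genes (right) in each of the 16 libraries (points, numbered by replicate; horizontal bars are group means and error bars SDs; the vertical axes differ and do not start at 0). The second WT female brain is the lowest brain in both panels, at 5.31 and 5.48, and no cerebellum is above 2.64 and -0.13.

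The G1 regulators divided into genes with a large difference and the cyclin E genes, with little or none. Ccnd2, cyclin D2, which is typical of cycling radial glia, was at 522, 547 and 520 CPM in the WT male brains, the highest of the 42 genes per kilobase of exon at 56.3 CPM, and at 15.5, 14.9 and 14.9 CPM in the WT cerebellums, a log2 fold change of 5.13 (SE 0.046). Cyclin D1 (Ccnd1) was at 103, 128 and 138 CPM against 21.6, 23.4 and 23.4 CPM, a difference of 2.42 (SE 0.090). Both cyclin E genes, whose products partner Cdk2 at the start of S phase, departed from this pattern. Ccne1 was at 10.6, 12.3 and 11.6 CPM in brain and at 9.96, 10.1 and 9.68 CPM in cerebellum, a log2 fold change of 0.20 (SE 0.078, adjusted p = 0.0262, edgeR) whose fold was under the limit. It was near that limit in Het mice, with means of 11.8 CPM in male brain and 9.01 CPM in cerebellum. Between Het male brain and Het cerebellum 41 of the 42 genes were called, as were 69.3% of all genes. With WT libraries scaled by total counts alone it was also 41 (71.2% of all genes). Ccne2 was at 20.4, 20.7 and 22.8 CPM against 22.1, 21.3 and 20.8 CPM, with a log2 fold change of -0.0032 (95% interval -0.14 to 0.13), and was the one gene whose brain and cerebellum values overlapped. Per kilobase of exon, Ccne2 ranked 33 of 42 in WT male brain (6.10 CPM) and 2 in WT cerebellum (6.12 CPM), while Pcna was first there at 14.9 CPM. Cdk2 itself was 3.56 higher in brain and E2f1 2.99. In the GENCODE M21 annotation 17.4% of the exonic bases of Ccne2 are shared with Ints8 on the opposite strand, and those of Ccne1 with no gene. Of the 42 genes 11 share exonic bases with another gene, Gins2 the most at 67.3% with Gse1. Whether reads were counted by strand is not given in the sources used here.

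The other genes of the cell cycle were 124 in 8 lists. All 29 spindle and chromosome genes and all 10 nucleotide and chromatin genes were called higher in brain, with medians of 4.92 and 3.53, against 12 of 17 origin genes (median 1.21) and 16 of 18 polymerase and clamp genes (median 1.42). Melk, a kinase of progenitor cells, had the largest log2 fold change at 9.17, from 22.0 to 24.3 CPM in brain to 0.0742 CPM or less in cerebellum, ahead of the condensin subunit Ncapg at 7.77 and the kinesin Kif2c at 7.56. Called lower in brain were 5 genes: Cdkn2b (-1.52), Cit (-1.31), Rbl2 (-0.85), Lin37 (-0.70) and Lin52 (-0.62). Rbl2 encodes the Rb relative p130 of resting cells, and Lin37 and Lin52 are MuvB subunits.

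The CDK inhibitors, which brake the cycle, did not follow the direction of the rest as a list. Of 8, 7 were tested, 3 were called higher in brain and 1 lower, and their median log2 fold change was -0.023. Cdkn1c, which encodes p57 and marks cells leaving the cycle, was at 149, 164 and 168 CPM in brain and 7.40, 7.49 and 8.71 CPM in cerebellum, a log2 fold change of 4.35 (SE 0.067). Cdkn3 and Cdkn2c differed by 4.37 and 1.96. Cdkn1b, which encodes p27, was high in both tissues, at 149, 140 and 148 CPM against 175, 172 and 173 CPM. Cdkn2d (-0.27) and Cdkn1a (-0.023) also lay within the fold limits, and Cdkn2b was at most at 0.571 CPM in these 6 libraries.

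No difference in these genes was detectable between Het and WT male embryonic brains. None of the 42 passed the threshold in the comparison of 3 Het with 3 WT male brains, where 0.184% of 16848 genes did, and 25 of the 42 were higher and 17 lower in Het. This split turned with single libraries: without the first WT male brain 7 were higher and 35 lower, without the second Het brain 11 and 31, and without the third WT brain 32 and 10, with medians on the log2 scale of -0.052, -0.022 and 0.050. The first WT brain was the lowest of the 6 male brains for 33 of the 42 genes. Their median was 0.0097 on the log2 scale, and the 95% interval of every one of the 42 lay inside the fold limits of 0.7 and 1.3, the lowest bound being -0.25 and the highest 0.29. The S phase mean was 5.72 ± 0.056 in Het and 5.73 ± 0.097 in WT, and the mitotic mean was 5.98 ± 0.051 and 5.97 ± 0.096 (SD, n = 3 each). At this sample size the same test recovered 80% of genes that were changed 1.5-fold in simulated counts. Each simulated gene varied on its own, so that rate does not cover a smaller shift shared by many genes.

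The smallest p-values in male brain were those of Cenpe, Mki67 and Cenpf. Cenpe, the kinetochore motor, was at 77.8, 82.4 and 86.8 CPM in WT and 88.6, 93.9 and 88.2 CPM in Het, and was the only gene of the 42 whose groups did not overlap with Het higher, as was so for 6.18% of genes tested. None of the 42 was without overlap in the other direction (6.17% of genes tested). Its log2 fold change was 0.14 (SE 0.045, adjusted p = 0.452, edgeR). Mki67 was at 331, 343 and 370 CPM in WT and 364, 389 and 372 CPM in Het, with a log2 fold change of 0.11 (SE 0.043, adjusted p = 0.525, edgeR). Cenpf, a second kinetochore protein, was at 124, 127 and 144 CPM against 143, 152 and 136 CPM. These 3 had an unadjusted p of at most 0.05, as did 3.95% of all genes on the higher side, and none of the 42 had one on the lower side, where 4.49% of all genes did. Together they are 3 of 42, against 8.45% of all genes in either direction. Without the first WT brain none of the 42 had such a p on the higher side and 6 had one on the lower side, where 3.62% and 3.34% of all genes did. In the lower direction Ccnd2 came first, at 522, 547 and 520 CPM in WT and 429, 504 and 551 CPM in Het (log2 fold change -0.097, SE 0.068), followed by Aurkb (-0.070, SE 0.062) and Plk1 (-0.077, SE 0.069), and in all 3 the groups overlapped. Aurkb was at 31.8, 36.7 and 36.2 CPM in WT and 30.9, 33.4 and 34.7 CPM in Het. Plk1, the polo kinase, was at 33.3, 41.1 and 38.4 CPM and 33.6, 37.1 and 34.8 CPM.

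**Figure D3:**
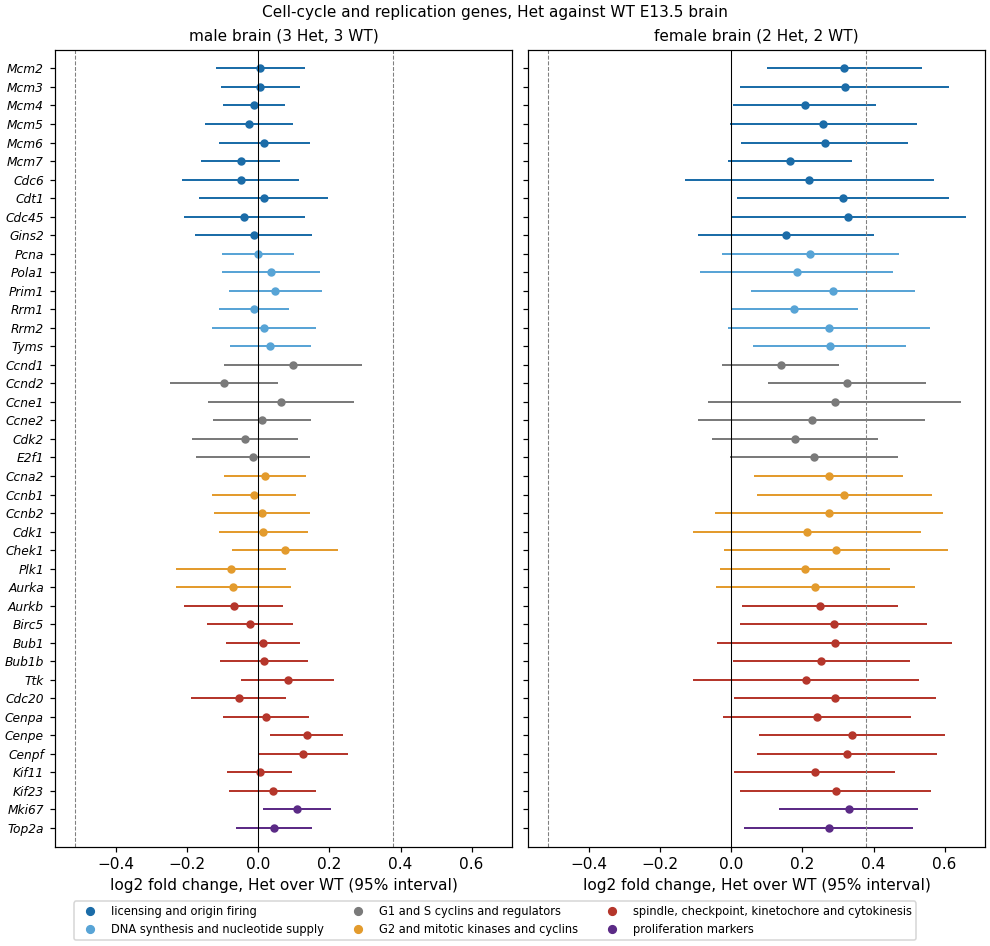
Log2 fold change between Het and WT for each of the 42 genes in male (left) and female (right) E13.5 brain, with 95% intervals from edgeR (log2 scale, colours give the role, dashed lines mark folds of 0.7 and 1.3). Male values lie on both sides of 0 within the dashed lines, and all 42 female values lie to the right of 0 with wider intervals.

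In female brain all 42 genes were higher in Het, yet none passed the threshold, and the second WT brain lay below the rest. The median log2 fold change was 0.27, against 0.00015 over the 17152 genes tested, the range was 0.14 to 0.34, and 0.111% of all genes were called, 0% with Het higher. An unadjusted p of at most 0.05 was found for 22 of the 42, all with Het higher, against 2.72% of all genes on that side and 3.68% on the other. Both Het brains lay above both WT brains for 31 of the 42, against 18% of all genes. The smallest adjusted p among the 42 was 0.773 in edgeR. DESeq2's Wald test gave an adjusted p of 0.0328 to Mki67, the only one of the 42 under 0.05 there (0.297% of all genes were), with a fold under the limit.

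The second WT female brain was the lowest of the 4 female brains for all 42 genes and the lowest of all 10 brains for 40 of them. Its genes lay at a median of -0.46 on the log2 scale from the mean of the WT male brains, where the other 9 brains lay between -0.12 and 0.076. Mki67 was at 289 and 241 CPM in the WT female brains and at 330 and 337 CPM in the Het ones, a log2 fold change of 0.33 (SE 0.082). Ccnd2 was at 364 and 316 CPM against 460 and 392 CPM (0.33, SE 0.094), and Mcm2, a helicase subunit, at 85.4 and 71.2 CPM against 103 and 92.2 CPM (0.32, SE 0.092). In each of these 3 genes the groups did not overlap and the second WT brain was the lowest. Pcna was at 109 and 86.5 CPM against 120 and 108 CPM, so that the first WT brain lay among the Het values, as it did for Cdk1 (51.4 and 37.3 CPM against 53.7 and 49.1 CPM). At this sample size the test recovered 54% of genes that were changed 1.5-fold in simulated counts, where each gene varied on its own. A smaller shift shared by many genes, such as the one seen here, was not simulated.

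**Figure D4:**
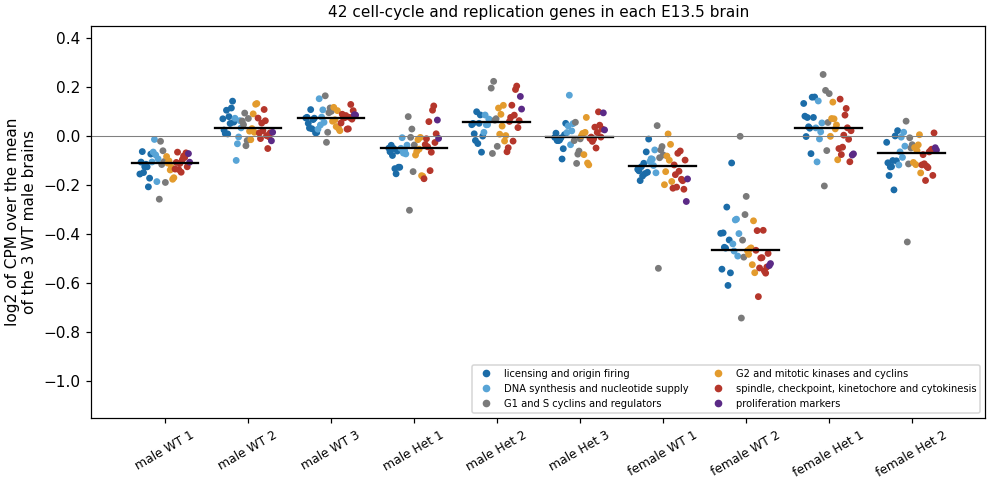
Log2 ratio of CPM to the mean of the 3 WT male brains for the 42 genes (points, coloured by role) in each of the 10 E13.5 brains; black bars are medians over the genes. The median of the second WT female brain is -0.46, and the medians of the other 9 lie between -0.12 and 0.076.

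Without the second WT female brain the median log2 fold change over the 42 was 0.11 in place of 0.27, 4 genes had an unadjusted p of at most 0.05 (1.47% of all genes did with Het higher), and none was called (0.228% of all genes). Without the first Het brain the median was 0.20 and 1 gene had such a p (1.10% of all genes with Het higher). Without the first WT brain the median was 0.43 and 24 of the 42 were called higher in Het, where 1.48% of all genes were called in either direction. In both fits the lone WT brain was assumed to vary like the Het pair. Among the female brains the second WT brain was also the lowest in progenitor markers and the highest in neuronal ones. Its summed level of 8 radial glia and progenitor markers was 1666 CPM, against 1853 CPM in the first WT and 1959 and 1876 CPM in the Het brains. Its 8 markers of postmitotic neurons summed to 6339 CPM against 5940, 5641 and 5987 CPM. The WT male brains were at 1674 to 1836 CPM for the progenitor list, close to its level, and at 5760 to 5993 CPM for the neuronal list. No marker of these 2 lists had a count of 0 in any brain, 7 of the 8 progenitor markers were higher in Het and all 8 neuronal ones lower, and none passed the threshold. Erythroid markers summed to 1276 and 1318 CPM in WT and 1205 and 1181 CPM in Het. The part of tissue composition or developmental stage in the female values was not tested.

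With all 10 brains fitted together and sex as a covariate, none of the 42 was called, where 0.346% of 17620 genes were. All 42 were higher in Het, by a median of 0.11 on the log2 scale, and each had a 95% interval inside the fold limits. Mki67 had the smallest adjusted p, at a log2 fold change of 0.20 (SE 0.054, adjusted p = 0.175, edgeR), followed by Cenpe at 0.22 (adjusted p = 0.203, edgeR) and Cenpf at 0.21 (adjusted p = 0.256, edgeR). Without the second WT female brain the median was 0.038, with 36 genes higher and 6 lower, and without the first Het female brain it was 0.066, with 40 and 2. The difference between the sexes in the effect of genotype was tested as an interaction, and none of the 42 nor any of the other genes passed (0% called, smallest adjusted p 0.985 in edgeR), although all 42 terms had the same sign and 16 had an unadjusted p of at most 0.05 (2.24% of all genes on that side). Those 16 became 1 without the second WT female brain, where 39 terms were above 0 and 3 below and the median fell from 0.24 to 0.099. They became 40 without the first WT female brain and ranged from 1 to 26 with any other brain left out. That term shares its female brains with the comparison above and is no second line of evidence. DESeq2's Wald test with the same threshold called none of the 42 in males, in females or over both sexes. With no fold limit it put only Mki67 of the 42 under 0.05 over both sexes (adjusted p = 0.0418), as it did 1.21% of all genes. Without the filter on low counts the smallest adjusted p among the 42 over both sexes was 0.0309 in edgeR, with none called.

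Female and male E13.5 brains were also compared in these genes, over all 10 brains with genotype as a covariate. This comparison was chosen after the data were seen. The level was lower in females for 40 of the 42 genes, with a median log2 difference of -0.14, and 7 (Ccnd2, Bub1b, Cenpe, Cenpf, Kif11, Mki67 and Top2a) reached an adjusted p of 0.05 or less (edgeR), as did 11.2% of all genes. None had a fold under 0.7, and 1.46% of all genes passed both limits. Ccnd2 had the largest difference at -0.42 (SE 0.087, adjusted p = 0.0123, edgeR), with 429 to 551 CPM in the 6 male brains and 316 to 460 CPM in the 4 female ones, which overlapped. Mki67 was at 331 to 389 CPM in males and 241 to 337 CPM in females, a difference of -0.28 (SE 0.055, adjusted p = 0.0105, edgeR). Without the second WT female brain 34 of the 42 were lower in females and 8 higher, with a median of -0.053, and 5 of the 7 still did (Ccnd2, Cenpe, Cenpf, Kif11 and Mki67), as did 7.21% of all genes, and the differences of Ccnd2 and Mki67 were -0.34 and -0.21. The labels do not say whether male and female embryos came from the same litters, so sex and litter cannot be told apart.

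In adult cerebellum, where the 42 genes were at 0.133 to 35.8 CPM in WT on average and 15 of them under 1 CPM, one gene differed between genotypes. Ccnb1, Cdk1, Aurkb, Birc5 and Bub1b were removed by the filter on low counts, and of the 37 genes tested 1 passed the threshold with Het higher, where 0.532% of 15979 genes did so, and none with Het lower (0.3%). This was Cdc20 (ENSMUSG00000006398, GRCm38 chromosome 4, 118432901 to 118437352, minus strand, whose promoter is given above and which shares 2.84% of its exonic bases with Elovl1 on the opposite strand). It was at 3.29, 3.26 and 3.07 CPM in WT and at 6.16, 5.10 and 5.15 CPM in Het, from 91, 88 and 86 reads against 160, 137 and 144. All 3 Het cerebellums lay above all 3 WT ones. The log2 fold change was 0.77 (SE 0.12, adjusted p = 0.00174, edgeR), and its adjusted p stayed under 0.05 with each replicate left out in turn, with 0.0164 the largest. The next gene on the higher side was Ccne2, at 22.1, 21.3 and 20.8 CPM in WT and 23.1, 25.0 and 23.5 CPM in Het (log2 fold change 0.16, SE 0.053, adjusted p = 0.0930, edgeR). These 2 were the genes of the 37 whose groups did not overlap with Het higher, as was so for 11.6% of all genes, and 4 did not overlap with Het lower (12.4%).

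**Figure D5:**
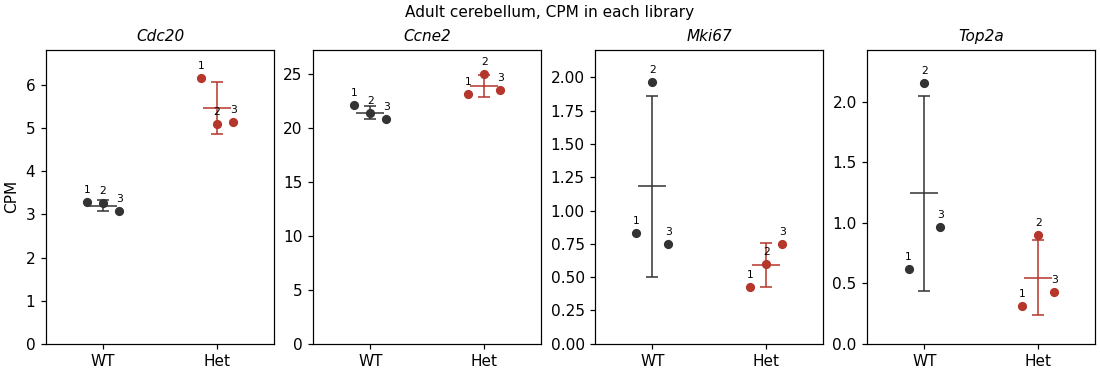
CPM of Cdc20, Ccne2, Mki67 and Top2a in each adult cerebellum (points, numbered by replicate; bars are means and error bars SDs, n = 3; each vertical axis starts at 0). Cdc20 is at 3.07 to 3.29 CPM in WT and 5.10 to 6.16 CPM in Het, while the WT means of Mki67 and Top2a rest on the second WT library at 1.97 and 2.15 CPM.

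No other gene of the 42 passed. The 7 other spindle, checkpoint and kinetochore genes tested ranged from -0.21 to 0.47 in log2 fold change with none called, and the median of the 37 was -0.047, with 15 higher and 22 lower. On the lower side the smallest p-values were those of Top2a (-1.17, SE 0.42, adjusted p = 0.120, edgeR), Mki67 (-0.98, SE 0.36, adjusted p = 0.125, edgeR) and Ccnd2 (-0.15, SE 0.064, adjusted p = 0.210, edgeR). Top2a was at 0.614, 2.15 and 0.964 CPM in WT and 0.308, 0.894 and 0.429 CPM in Het, with overlap, and Mki67 at 0.830, 1.97 and 0.750 CPM against 0.424, 0.596 and 0.751 CPM. Ccnd2 was at 15.5, 14.9 and 14.9 CPM against 13.9, 13.3 and 13.7 CPM, without overlap. On the higher side the third smallest p was that of Rrm1, at 34.9, 35.9 and 32.3 CPM against 36.7, 35.0 and 38.1 CPM (0.094, SE 0.050). Without the second WT cerebellum the numbers of genes higher and lower were 18 and 19, and Cdc20 was again the one call. At these low levels the intervals were wide, and 17 of the 37 lay inside the fold limits.

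Markers of blood moved with genotype in the same libraries. The 8 erythroid markers summed to 160, 226 and 249 CPM in the WT cerebellums and to 290, 528 and 309 CPM in the Het ones, 5 of the 8 were tested, and 4 of these (Hba-a1, Hba-a2, Hbb-bs and Alas2) were called higher in Het, while the embryonic globins Hba-x and Hbb-y had no count in any cerebellum. The Het library with the most erythroid signal was the second, and that with the most Cdc20 was the first. The granule cell markers summed to 5626 to 5889 CPM in all 6 cerebellums. Of the cell type lists other than the erythroid one, only that of oligodendrocyte precursors did not overlap between genotypes. It summed to 70.8 to 74.5 CPM in WT and 67.1 to 69.0 CPM in Het. What part blood had in the Cdc20 difference was not tested.

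Whether the genotype difference itself varied between male brain and cerebellum was tested as an interaction over those 12 libraries. Cdc20 passed, with a term of -0.82 (brain minus cerebellum, SE 0.13, adjusted p = 0.0143, edgeR), where 0.26% of all genes did. The adjusted p of this term was 0.0664 without the third WT cerebellum and 0.0660 without the first Het cerebellum (edgeR). In male brain Cdc20 was at 48.4, 57.7 and 54.6 CPM in WT and 48.6, 52.8 and 51.8 CPM in Het (log2 fold change -0.056, SE 0.060), with overlap. Mki67 and Top2a had terms of 1.09 (adjusted p = 0.294, edgeR) and 1.22 (adjusted p = 0.337, edgeR), and no other gene of the 42 had an unadjusted p of at most 0.05, where 9.72% of all genes had one. Without the second WT cerebellum neither Mki67 nor Top2a had one.

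Among the 124 other cell-cycle genes none was called in any comparison of Het with WT by edgeR, and none by DESeq2's Wald test with the same threshold. Of those tested, 3 had an unadjusted edgeR p of at most 0.05 in male brain (8.45% of all genes), 11 in cerebellum (19.9%) and 45 in female brain, all of the 45 with Het higher (2.72% of all genes on that side). In male brain 65 of the 123 tested were higher in Het and their median log2 fold change was 0.0053. In female brain 113 of 123 were higher, with a median of 0.23 and all 29 spindle and chromosome genes on that side, in the same 4 libraries in which the second WT brain was low. In cerebellum 61 of 110 were higher, with a median of 0.014. The CDK inhibitors had medians of -0.043, 0.041 and 0.12 in the 3 comparisons. Cdkn1c, for example, was at 149, 164 and 168 CPM in WT and 145, 168 and 136 CPM in Het male brains, with overlap.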

How the data were processed

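PolyA RNA of 16 mouse tissues was read as single-end reads, and the authors mapped them to mm10 with TopHat2 2.0.11 and counted them per Ensembl gene with HTSeq 0.6.1. Each file the authors deposited holds unnormalized read counts, 1 for every gene of 1 library. The mode and strand setting of the counting are not given in the sources used here. The 3 ChIP-seq samples were not analysed here.

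Gene symbols came from GENCODE M21, in which 40254 of the 41388 identifiers had one. Each comparison was fitted on its own libraries over all genes with edgeR 4.0.16 in R 4.3.3 (TMM scaling, filterByExpr with a minimum count of 10, quasi-likelihood test, Benjamini-Hochberg adjustment). A call needed an adjusted p of 0.05 or less together with a fold under 0.7 or over 1.3; interaction terms had no fold limit. Scores average log2 CPM (prior count 2) over genes and were not tested. The paper's first version of DESeq was not used here. DESeq2 1.42.0, other filters and scalings, the replicate number as a block and leaving out each library were alternatives. Fits were tested on simulated counts with 200 changed genes. Library totals of 16386029 to 50459755 bound the precision at low counts.

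The 42 genes, the other lists and the tests were chosen with earlier results of these data known. Values per library are given for genes called in a Het and WT comparison, for the 3 smallest p-values in each direction, for the 3 largest and 3 smallest tissue differences and for examples of each role. Sequences are from RefSeq. Figures were drawn with matplotlib in Python 3.11.15.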

Additional observations from a re-analysis of the deposited data

Results flagged for a closer look

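The genotype difference of Cdc20 was the one result among the 42 genes that differed between tissues by its own test. The interaction term over male brain and cerebellum was -0.82 on the log2 scale (brain minus cerebellum, SE 0.13, adjusted p = 0.0143, edgeR), with a Het minus WT difference of 0.77 in cerebellum and -0.056 in male brain. All 3 Het cerebellums were above all 3 WT ones, and the male brains overlapped. The adjusted p of the term (edgeR) was 0.0664 without the third WT cerebellum and 0.0660 without the first Het cerebellum, and ranged from 0.00244 to 0.0444 with any other library left out. The Het cerebellums also had more erythroid marker RNA, 290 to 528 CPM against 160 to 249 CPM in WT, and its part in the difference was not tested.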

How the results depend on the processing

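Of 477 recomputed values over 41 results, 454 stayed close to the main result. For single genes this meant the same direction and the same side of the threshold. Counts of genes had to stay near the main count. Scores had to move by less than the SD between replicates. Their direction was not part of that rule, so a small score difference could change sign. In female brain the count of the 42 genes called ran from 0 to 24 with each library left out, the 24 arising without the first WT brain, and in male brain and over both sexes it was 0 throughout. In cerebellum 1 gene was called with any library left out, 3 without the filter on low counts (Cdc20, Top2a and Mki67) and 2 with the replicate number as a block (Cdc20 and Top2a). For the genotype by sex term the count ran from 0 to 1 with a library left out, again without the first WT female brain, and for the genotype by tissue term from 0 to 1, with 4 when the filter was dropped. Taking the median over genes in place of the mean moved the tissue difference to 3.34 for S phase genes and 6.17 for mitotic genes. The log2 fold change of Ccne2 between tissues, near 0, changed sign to 0.21 when libraries were scaled by total counts alone, where its adjusted p was 0.00559 (edgeR), and ran from -0.060 to 0.027 with each library left out, above 0 without the first WT cerebellum, the first WT male brain or the second WT male brain. Scaling by total counts alone also moved the median of the 42 genes from 4.81 to 5.02. The TMM factors over all 16 libraries were 0.906 to 0.913 in WT cerebellum and 1.053 to 1.056 in WT male brain. Tissue differences as small as that of Ccne2 therefore depend on the scaling. The cause of the changes with single libraries left out was not tested.

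In male brain and cerebellum the correlation of residuals between same-numbered WT and Het libraries ran from -0.13 to 0.014. None was above the 0.1 set as a sign of pairing. In female brain it was -0.052 for same-numbered and 0.052 for other pairs. With 2 libraries per group, residuals from the group means mirror each other, so the female values cannot show whether the numbers pair libraries. With the number as a block 0 of the 42 were called in male and female brain, 2 in cerebellum and 1 in the genotype by tissue term. In female brain the block raised the genes with an unadjusted p of at most 0.05 from 22 to 37. All had Het higher (3.91% of all genes on that side), and the smallest adjusted p was 0.238 (edgeR). For the genotype by sex term such genes rose from 16 to 33 (2.75% of all genes on that side), with 0 called. Low levels in the cerebellum, where 15 of the 42 genes were under 1 CPM on average in WT, left 5 genes untested and intervals that reached from -2.07 to 1.32 on the log2 scale.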
